A study of Arabidopsis thaliana with 3 samples.

Results

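SAUR19 to SAUR24 on chromosome 5 and SAUR26 to SAUR29 on chromosome 3 of Arabidopsis thaliana are 2 tandem runs of small auxin up RNA (SAUR) genes. The members were taken by their locus identifiers from the non-control probes of the array, which gave 10 genes, each with 1 probe, of 25665 loci on the array. Of the 10 genes, 8 were bright enough to be tested among 19875 loci, and SAUR27 and SAUR28 were not.

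SAUR genes encode short, unstable proteins, and many of them are switched on within minutes of auxin treatment. In Arabidopsis, proteins of the SAUR19 group bind and inhibit protein phosphatases of clade D of the type 2C family (PP2C.D). This leaves the proton pumps of the plasma membrane phosphorylated and active, the cell wall is acidified, and the cell expands. The related SAUR26 to SAUR28 proteins are known from work on growth responses to temperature.

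The samples were whole seedlings at an age of 10 d in the Col-0 background, grown on MS agar with 1% sucrose at 23 °C in 16 h of light and 8 h of dark. One genotype carried 35S:AtIBH1-SRDX and the other was wild type. IBH1 is a helix-loop-helix protein that restrains cell elongation, SRDX is a short plant repression domain, and the viral 35S promoter is active in nearly all tissues, so the fusion is not confined to the cells that make IBH1. The sources used here do not say how many transgenic lines were used or whether seedlings were pooled, so p-values measure the spread between these 3 pairs of samples. RNA of the genotypes was hybridised together on 3 2-colour Agilent arrays, 1 per biological replicate, with wild type in Cy5 on arrays 1 and 3 and in Cy3 on array 2. Each value is a log2 ratio with wild type as the divisor, so a negative value is a lower signal in IBH1-SRDX.

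The arrays shared 1 slide and 1 scan, between 58.8% and 63.5% of the non-control spots were well above background in each genotype, and no spot was saturated. The probe for IBH1 gave -0.88, -0.60 and -0.67. Which stretch of the gene that probe covers is unknown here, so it checks nothing about the labels. The probe for SUP, the gene of SUPERMAN, from whose repression motif SRDX was designed, gave 8.06, 8.42 and 7.87, higher in the RNA labelled IBH1-SRDX on each array. Whether that probe binds transgene RNA was not tested. IBH1-SRDX therefore means the RNA so labelled. All 5 markers of green tissue and all 7 of root were well above background in both genotypes on all 3 arrays. In whole seedlings, fewer cells of a type and less RNA per cell cannot be told apart.

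All 8 tested members fell in IBH1-SRDX, each by at least 2-fold, and none rose. Across all tested loci 19.9% were lower and 18.6% higher by limma at an adjusted p below 0.05, and 2.13% were both called and at least 2-fold lower. The means of the 8 members lay between -2.13 and -1.47, against a median near 0 for all tested loci. No spot of the 10 probes had its own signal flagged as an outlier. Outlier flags on their local backgrounds were not counted.

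In the chromosome 5 run, SAUR19 (AT5G18010), whose protein enlarges cells when it is stabilised by a tag, stood at -2.39, -2.07 and -1.91 on arrays 1, 2 and 3. Its mean of -2.13 ± 0.25 (SD, n = 3), a 4.36-fold lower signal, had a limma adjusted p of 4.81e-05. All 3 arrays were far below 0, and array 1 held the lowest value. Feature Extraction's processed signals for this probe were 73.6, 103 and 148 units in IBH1-SRDX beside 714, 813 and 801 units in wild type, so the genotypes did not overlap.

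SAUR20 (AT5G18020), next to SAUR19, stood at -2.02, -1.56 and -1.58, a mean of -1.72 ± 0.25 (SD, n = 3) with a limma adjusted p of 9.54e-05. Arrays 2 and 3 were nearly equal and array 1 was lower. SAUR21 (AT5G18030) stood at -2.47, -2.01 and -1.85, a mean of -2.11 ± 0.32 (limma adjusted p = 7.57e-05). Its processed signals were 59.1, 125 and 203 units in IBH1-SRDX and 844, 1015 and 1011 units in wild type. The reference gene table also attaches the symbol SAUR21 to a different locus, AT5G01830, which is not a member of the run.

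SAUR22 (AT5G18050) varied most between arrays, at -2.52, -2.06 and -1.41, with a mean of -1.99 ± 0.56 (SD, n = 3) and a limma adjusted p of 0.00043. Its processed signals were 291, 487 and 703 units in IBH1-SRDX and 2177, 2381 and 2108 units in wild type. The IBH1-SRDX signal thus differed more than 2-fold between arrays 1 and 3, while the wild-type signal did not.

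SAUR23 (AT5G18060) stood at -2.14, -1.80 and -1.38, a mean of -1.77 ± 0.38 (limma adjusted p = 0.000216). SAUR24 (AT5G18080), separated from the others by other genes, had the smallest fall of the run by the mean, at -1.82, -1.25 and -1.34, a mean of -1.47 ± 0.31 (limma adjusted p = 0.000251). Its 2.77-fold lower signal was still at least 2-fold lower on each array.

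**Figure D1:**
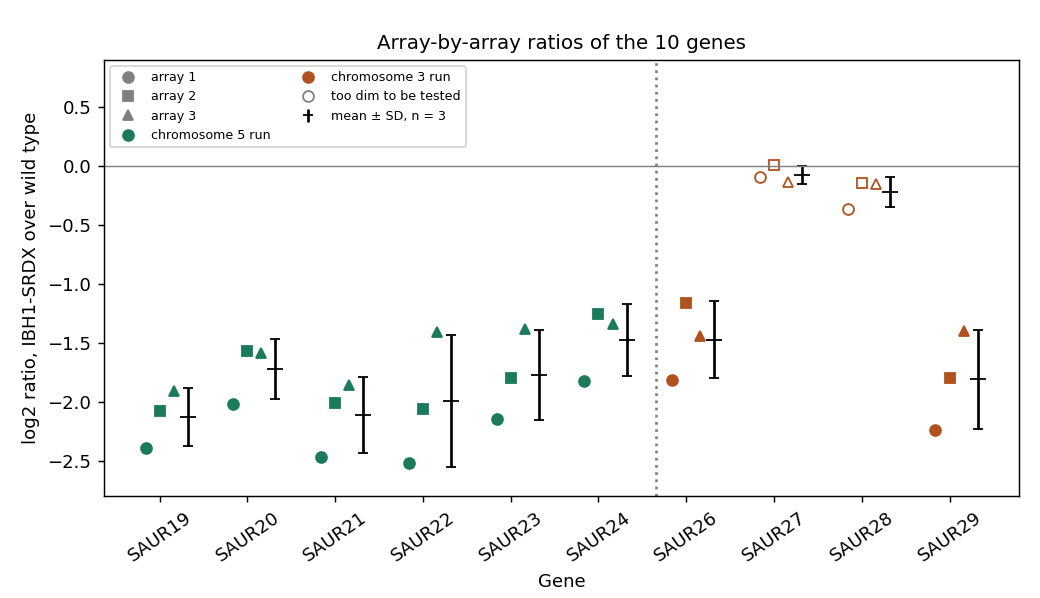
Log2 of IBH1-SRDX over wild type (vertical axis) for the 10 genes (horizontal axis), 1 symbol shape per array, with the mean ± SD (n = 3) in black; open symbols are genes too dim to be tested. All points of the 8 tested genes lie between -2.52 and -1.16, and those of SAUR27 and SAUR28 lie near 0.

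In the chromosome 3 run only the outer genes were measured. SAUR26 (AT3G03850), at one end, stood at -1.81, -1.16 and -1.44, a mean of -1.47 ± 0.33 (SD, n = 3) with a limma adjusted p of 0.000294. Its processed signals were 38.1, 90.0 and 103 units in IBH1-SRDX and 347, 356 and 398 units in wild type, with no overlap. SAUR29 (AT3G03820), at the other end, stood at -2.24, -1.79 and -1.40, a mean of -1.81 ± 0.42 and a 3.50-fold lower signal (limma adjusted p = 0.000259). Its processed signals were 75.6, 161 and 277 units in IBH1-SRDX and 761, 928 and 891 units in wild type.

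The inner genes of that run gave little or no signal. The SAUR27 probe (AT3G03840) was not well above background in either genotype on any array, with ratios of -0.09, 0.01 and -0.14 that carry no information on the transcript. The SAUR28 probe (AT3G03830) was well above background in wild type on 2 of 3 arrays, arrays 1 and 3, and in IBH1-SRDX on none. Its ratios were -0.37, -0.14 and -0.15, on average 1.17-fold lower in IBH1-SRDX. This is not a bound, since wild type was not well above background on array 2. By the Feature Extraction log ratio this probe stood at -1.80, -0.78 and -1.23 in log2. Its processed signals were 16.9, 20.2 and 21.8 units in IBH1-SRDX and 58.9, 34.7 and 51.2 units in wild type. With SAUR27 and SAUR28 entered in the fit without a filter on dim probes, neither was called (limma adjusted p = 0.536 and 0.0881), and SAUR28 was not called without replicate 2 either (adjusted p = 0.061).

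SAUR genes of a tandem run are similar in sequence, so a probe may take up RNA of its neighbours, and the signals of single members are uncertain. Probe sequences were not used here, and the extent of shared signal was not tested. The SAUR27 probe stayed at background in the same wild-type RNA in which the probes of SAUR26 and SAUR29 were 347 to 928 units. So did the probe of SAUR73 (AT3G03847), which lies between SAUR27 and SAUR26. Whether the SAUR27 and SAUR73 probes can give signal at all was not tested. Their values do not show whether the probes of SAUR26 and SAUR29 take up RNA of each other. Shared signal between the runs was not tested either. In the chromosome 5 run all 6 probes were well above background in both genotypes on all 3 arrays, and their shared signal was not tested.

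The 2 runs were alike in size of change. The median of the 6 chromosome 5 members was -2.27, -1.90 and -1.49 on arrays 1, 2 and 3, and that of SAUR26 and SAUR29 was -2.02, -1.48 and -1.42. The difference, chromosome 5 minus chromosome 3, was -0.24, -0.42 and -0.07, a mean of -0.25 ± 0.18 (SD, n = 3). The chromosome 5 run was thus lower on each array, but by less than the range within that run, which spanned 0.57 to 0.82 between members of the same array. The sign of the difference of run medians did not hold under another background treatment: with the Feature Extraction log ratio it was 0.05, with medians of -2.40 and -2.44.

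Ordered by mean ratio from the lowest, the members were SAUR19, SAUR21, SAUR22, SAUR29, SAUR23, SAUR20, SAUR26 and SAUR24. Of the 7 pairs of neighbours in that order, SAUR22 with SAUR29 and SAUR20 with SAUR26 differed on average by more than the SD of their difference over arrays, and with one sign on all arrays. The other 5 pairs did not. The order was made from these same ratios, so the sign of each pair's mean difference is built in. SAUR22 and SAUR29 differed by only -0.007 on array 3. With the Feature Extraction log ratio SAUR22 (-2.26) lay above SAUR29 (-2.51), while SAUR20 (-2.53) stayed below SAUR26 (-2.38). SAUR19 and SAUR24 were picked as the ends of the order by these same ratios, so a gap between them is built in. SAUR19 lay below SAUR24 by 0.57, 0.82 and 0.57 on the 3 arrays (mean difference -0.65 ± 0.15, SD, n = 3). The order also depended on the background treatment, since SAUR21 was lowest and SAUR23 highest with the Feature Extraction log ratio.

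A shared pattern over arrays ran through both runs. In each of the 8 tested members the ratio was lowest on array 1, and the IBH1-SRDX level was lowest on array 1 and highest on array 3. Among the 413 loci that were called, at least 2-fold lower and had no spot left out on any array, which include the 8 members, 39.5% had their lowest ratio on array 1 and 21.3% had that order of IBH1-SRDX levels. Among the 32 other SAUR genes called lower these shares were 53.1% and 28.1%, and in the SAUR61 to SAUR68 run on chromosome 1 the ratio was lowest on array 1 in 6 of 7 tested genes. On the normalized log2 scale, SAUR29 levels in IBH1-SRDX were 7.07, 7.48 and 8.00 on arrays 1, 2 and 3, beside 9.31, 9.27 and 9.40 in wild type. For SAUR23 the IBH1-SRDX levels were 7.86, 8.20 and 8.64, and the wild-type levels 10.00, 9.99 and 10.02. The SD over arrays was larger in IBH1-SRDX than in wild type for all 8 members, as it was for 82.6% of the 413 loci. Since the 8 probes may share signal, they are not 8 independent observations of the pattern.

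**Figure D2:**
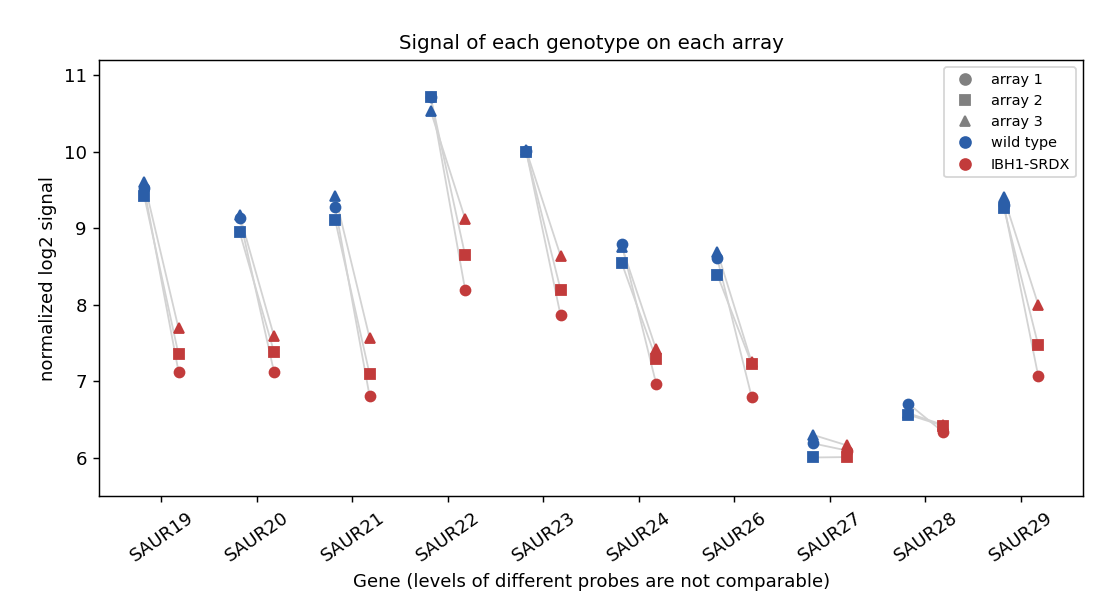
Normalized log2 signal (vertical axis) of each of the 10 genes in wild type (blue) and IBH1-SRDX (red), with grey lines joining the genotypes on each array. Wild-type points of a tested gene lie close together (SD over arrays of 0.01 to 0.16) while IBH1-SRDX points spread more (SD of 0.23 to 0.47), and levels of different probes are not comparable.

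The size of the fall changed with the treatment of background. The reported values add an offset of 50 units to each background-corrected signal, which draws ratios of dim probes toward 0. With an offset of 10 the mean of SAUR21 was -2.55 and with the Feature Extraction log ratio, which has no such offset, it was -3.06, an 8.33-fold lower signal. The deposited series table gave the lowest value for each member, with SAUR21 at -3.19. SAUR19 was 7.47-fold, SAUR26 5.19-fold and SAUR24 4.42-fold lower by the Feature Extraction ratio. SAUR22 and SAUR23 moved less, to 4.79-fold and 4.19-fold. With local backgrounds that were marked as outliers kept, all falls were smaller, from 2.77-fold for SAUR22 to 1.87-fold for SAUR26. All 8 members stayed called lower under each of 12 other settings, with limma adjusted p from 7.96e-17 to 0.0458. Settings of the probe filter and probe choice left their ratios unchanged, as each had 1 probe that passed every filter. The smallest p, for SAUR22, came from the fit without replicate 3. A fit on so few arrays leans on the spread of other loci, so that p is no measure of stronger evidence. Without replicate 1 it was 0.000506 and without replicate 2 it was 0.00312.

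**Figure D3:**
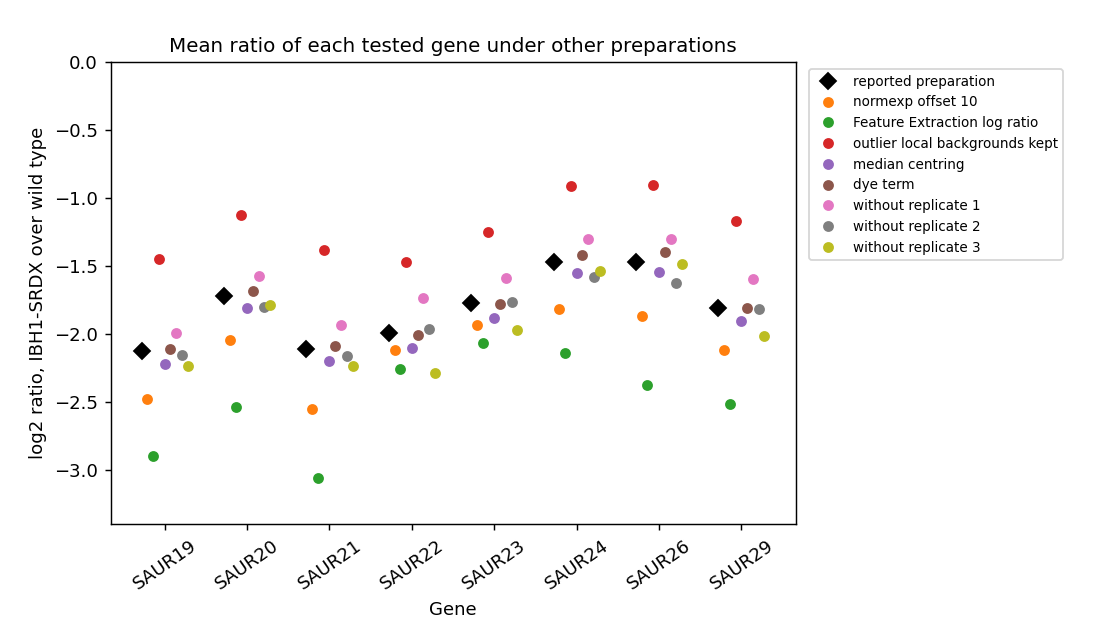
Mean log2 ratio of IBH1-SRDX over wild type (vertical axis) for the 8 tested genes (horizontal axis) under the reported preparation (black diamonds) and 8 of the 12 other settings (coloured circles), leaving out the series table and 3 settings of the probe filter and probe choice. Points lie below 0 throughout, highest with outlier local backgrounds kept (-0.90 for SAUR26) and, of those drawn, lowest with the Feature Extraction log ratio (-3.06 for SAUR21).

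Genes next to the runs were called in both directions. The 3 protein-coding genes on each side of each run and those between its members made 19 genes, of which 16 were on the array and 12 were tested. Of these 12, 1 was lower, 2 were higher and 9 were not called, with means between -0.62 and 1.08. The 1 lower and 2 higher genes of 12 stand beside 19.9% lower and 18.6% higher among all tested loci. A difference from those shares was not tested. In the chromosome 5 region TRP1, an enzyme of tryptophan synthesis, rose by 1.08 ± 0.19 (SD, n = 3, limma adjusted p = 0.000344), and NCBP, a cap-binding protein gene, rose by 0.66 ± 0.15 (adjusted p = 0.00173). AT5G18040, between SAUR21 and SAUR22, stood at 0.08, 0.39 and 0.30 (adjusted p = 0.0635). AT5G18065 and DRT101, between SAUR23 and SAUR24, stood at means of 0.18 and -0.17 (adjusted p = 0.154 and 0.14). AT5G18040 was called higher with a dye term (adjusted p = 0.0267) and with an offset of 10 (0.0494), AT5G18065 with a dye term (0.0332) and with the Feature Extraction log ratio (0.0197), while DRT101 was called lower in the series table (0.0192). On single arrays these intervening genes lay between -0.23 (DRT101) and 0.39 (AT5G18040). The SAUR genes beside them were at least 2-fold lower on each array.

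In the chromosome 3 region AT3G03870, beyond SAUR26, fell by 0.62 ± 0.08 (SD, n = 3, limma adjusted p = 0.00142). EDA30, next to SAUR29, stood at -0.05 and APRL5, next to SAUR26, at -0.11, and neither was called (adjusted p = 0.607 and 0.314). Median centring of the arrays ended the calls of NCBP and AT3G03870 (adjusted p = 0.511 and 0.215), while that of TRP1 held under all 12 other settings, with adjusted p up to 0.0454.

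**Figure D4:**
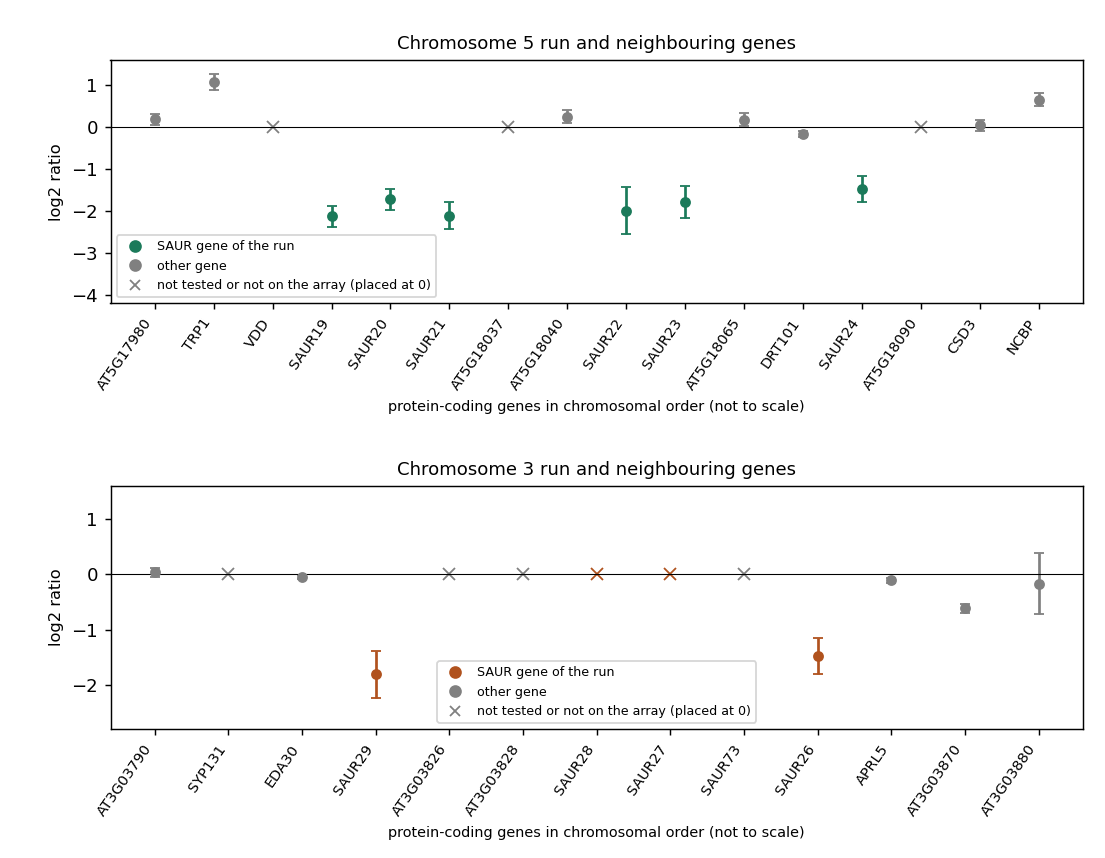
Mean log2 ratio of IBH1-SRDX over wild type ± SD over 3 arrays (vertical axis) for protein-coding genes in chromosomal order (horizontal axis, not to scale), with SAUR members of each run coloured and other genes grey. The tested SAUR genes lie between -2.13 and -1.47, the tested other genes between -0.62 and 1.08, and crosses at 0 mark genes without a tested probe.

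The rest of the SAUR family was more mixed. Of 69 other SAUR loci on the array, 53 were tested, of which 32 were lower, 9 higher and 12 not called, with a median of -0.38, and 11 were called and at least 2-fold lower. That is 60.4% lower, beside 19.9% of all tested loci. These include AT5G01830, the other locus with the symbol SAUR21, and without it 31 of 52 were lower (59.6%). The run SAUR61 to SAUR68 on chromosome 1 had 7 of 7 tested members lower, 5 of them at least 2-fold, with SAUR61 at -0.47 and SAUR62 at -0.48, and its medians were -2.18, -1.89 and -1.56 on the 3 arrays. By smallest adjusted p the leading other SAUR genes were SAUR46, SAUR63, SAUR64, SAUR57 and SAUR65. SAUR63 stood at -2.26, -2.21 and -1.91 on the 3 arrays, SAUR64 at -2.84, -2.42 and -2.32, and SAUR57 at -1.76, -1.78 and -1.97. SAUR65 stood at -1.75, -1.63 and -1.48. For SAUR46 no array gave an IBH1-SRDX signal well above background, so the size of its fall is uncertain. It was 4.88-fold in the reported fit (limma adjusted p = 2.07e-05). Its log2 ratio ran from -5.54 in the series table to -1.55 with outlier backgrounds kept. No test of a difference between the members and the other SAUR genes was made.

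**Figure D5:**
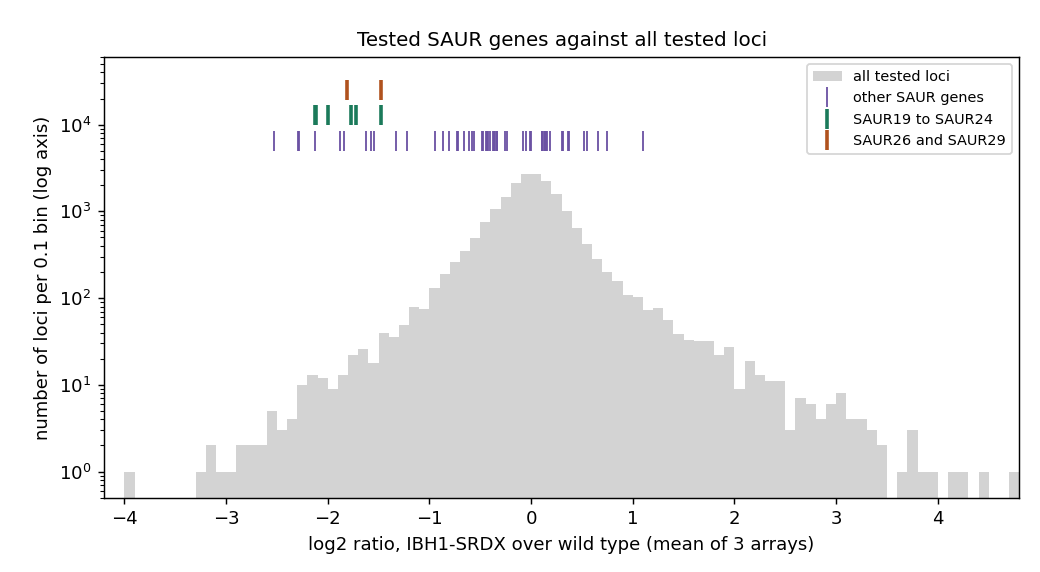
Number of tested loci (vertical axis, logarithmic) by mean log2 ratio of IBH1-SRDX over wild type (horizontal axis), with vertical ticks above for SAUR19 to SAUR24 (green), SAUR26 and SAUR29 (brown) and the 53 other tested SAUR genes (purple). The members lie between -2.13 and -1.47 in the lower tail, the other SAUR genes spread from -2.52 to 1.10, and 3 loci beyond the axis are not drawn.

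Lists of genes that act with SAUR proteins, or are reported above them in auxin and light signalling, each had called and uncalled members. Calls went in both directions only among the phosphatases. Of 9 phosphatase genes of the PP2C.D clade, the proteins that SAUR19 inhibits, 4 were lower, 2 higher and 3 not called, with a median of 0.00. Across all tested loci 19.9% were lower and 18.6% higher. PP2C.D1 (AT5G02760) stood at -1.43, -2.35 and -1.32, a mean of -1.70 ± 0.57 (SD, n = 3, limma adjusted p = 0.000834). PP2C.D7 stood at -0.95 ± 0.24 (adjusted p = 0.000786) and PP2C.D5 at -0.71 ± 0.13 (adjusted p = 0.00106). PP2C.D9 went the other way at 0.55 ± 0.04 (adjusted p = 0.00187), as did PP2C.D8 at 0.33 ± 0.16 (adjusted p = 0.0258). The calls of PP2C.D5, PP2C.D8 and PP2C.D9 ended with median centring (adjusted p = 0.102, 0.961 and 0.679), and PP2C.D8 was not called without replicate 2 or without replicate 3 either (adjusted p = 0.0594 and 0.0823). Its call also ended with outlier backgrounds kept, in the Feature Extraction ratio and in the series table (adjusted p = 0.158, 0.0787 and 0.243).

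Of 10 tested genes of the plasma membrane proton pump family, the pumps that the phosphatases switch off, none was lower, 2 were higher and 8 were not called, with a median of -0.05. These 2 of 10 are near the 18.6% of all tested loci that were higher. AHA4 stood at 0.54 ± 0.02 (SD, n = 3, limma adjusted p = 0.00198) and AHA1, one of the main pumps of growing tissue, at 0.34 ± 0.08 (adjusted p = 0.0146). AHA1 was not called without replicate 1 or without replicate 3 (adjusted p = 0.0587 and 0.082), and median centring ended both calls (adjusted p = 0.666 for AHA4 and 0.981 for AHA1). AHA4 was not called with outlier backgrounds kept (adjusted p = 0.0745), nor AHA1 with the series table (0.124). AHA2, the other main pump, stood at -0.53, 0.05 and -0.49 (adjusted p = 0.0839), so its arrays lay on both sides of 0.

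Of the 6 auxin receptor genes TIR1 and AFB1 to AFB5, AFB1 was lower at -0.59 ± 0.28 (SD, n = 3, limma adjusted p = 0.0075) and 5 were not called. That share of 16.7% is near the 19.9% of all tested loci that were lower. Of 8 transcription factor genes reported above growth-promoting SAUR genes, 3 were lower (37.5%, beside 19.9% of all tested loci) and 5 not called. The phytochrome-interacting factor PIF4 stood at -1.24, -0.61 and -0.42 on the 3 arrays (adjusted p = 0.00846). The auxin response factor ARF6 stood at -0.51 ± 0.06 (adjusted p = 0.00273), and BES1, a brassinosteroid transcription factor, at -0.53 ± 0.28 (adjusted p = 0.0109). ARF7, ARF8, ARF19, PIF5 and BZR1 were not called. Median centring ended the calls of AFB1, PIF4, ARF6 and BES1 (adjusted p = 0.239, 0.0823, 0.362 and 0.288), and BES1 was not called without replicate 1 (adjusted p = 0.0534).

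Markers of root and xylem were mostly lower too, beside 19.9% of all tested loci. Of 7 root markers 6 were lower, with a median of -0.59, and NRT2.1, a nitrate transporter gene, stood at -0.83, -1.71 and -1.97 on the 3 arrays, a mean of -1.50 (limma adjusted p = 0.0016) beside -1.47 for SAUR24 and SAUR26. CASP1, of the Casparian strip, stood at -1.06 ± 0.23 (SD, n = 3, adjusted p = 0.0005). The summed processed signal of the root markers was 38121 to 50801 units in IBH1-SRDX and 70902 to 80677 units in wild type. All 5 xylem markers were lower, with a median of -0.62, and their sums were 5363 to 5568 units in IBH1-SRDX and 9021 to 10047 units in wild type. Of 5 green tissue markers 1 was lower (20%, near the share of all tested loci) and 4 were not called, with a median of -0.24. Their sums were 436621 to 540814 units in IBH1-SRDX and 545282 to 578833 units in wild type. Median centring ended the calls of markers that include PSAD1, CASP2, SHR, CESA4, CESA8 and IRX3 (adjusted p = 0.194 to 0.688). CESA8 and IRX3 also lost their calls with outlier backgrounds kept (adjusted p = 0.0808 and 0.112) and without replicate 1 (0.0711 and 0.134), and IRX3 without replicate 3 (0.0673). None of these markers was at background, and the part of organ make-up in the fall of the SAUR genes was not tested. Among the green markers LHCB2.1 was dim, with mean log2 levels of 6.72 in IBH1-SRDX and 6.67 in wild type. RBCS1A and GAPA each lacked a ratio on 1 array.

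The loci closest to the runs in their 3 ratios were sought by Euclidean distance to the run medians. For the chromosome 5 run these were the transcription factor gene BZIP61 (distance 0.09), SAUR68 (AT1G29510, 0.11), AT3G07010 (0.22) and AT4G24275 (0.26). For the chromosome 3 run they were the xyloglucan enzyme gene XTH8 (0.12), ACA1 (AT3G52720, 0.13), SAUR16 (0.17) and PAR2, which encodes a small regulator of shade responses (0.19). BZIP61 stood at -2.31, -1.98 and -1.53 on the 3 arrays and XTH8 at -2.12, -1.53 and -1.37, each lowest on array 1. Likeness over 3 arrays of a single contrast is a description only.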

How the data were processed

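Per the file headers, the deposited scanner files hold spot and background intensity values (medians of pixels), flags, and the log10 ratio of Cy5 over Cy3 that Agilent Feature Extraction 9.1.3.1 computed after background subtraction and dye normalization. The deposited series table holds values that match natural log ratios of IBH1-SRDX over wild type less a constant, and it was used as an alternative. Background was corrected by normexp (offset 50), with local backgrounds marked as outliers replaced by the median of the others (a step first taken after these data had been seen), and ratios were normalized by loess within arrays. Control and outlier-flagged spots were left out. A probe entered the test if either genotype was well above background on each of the 3 arrays, the brightest probe stood for a locus, and ratios were tested against 0 with limma 3.58.1 in R 4.3.3, with Benjamini-Hochberg adjustment over 19875 loci. Residual degrees of freedom were 2 and prior ones 4.88. For a single gene, an exact two-sided sign-flip test of 3 ratios has 0.25 as its smallest p. Array number limits the precision. The gene table is that of TAIR10.1, used for names and gene order only, since the sources used here name no build for the array.

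Members, lists and settings were chosen with earlier results of these data known. Named beside the members were, per list, up to 5 called genes with the smallest adjusted p, the 3 protein-coding neighbours on each side of a run with those between its members, and the 4 nearest loci by distance. A further gene, AHA2, and the named uncalled receptors and factors were added after their values were seen. The fit was tested on simulated data. The values of 1 marker gene are not reported here.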

Additional observations from a re-analysis of the deposited data

How the results depend on the processing

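All 8 tested members kept their direction and call under the 12 other settings, and leaving out 1 replicate moved their means by at most 1.23-fold (SAUR22). Settings of the probe filter and probe choice could not change the ratios of these members, each with 1 probe that passed every filter. Of 587 values of 49 other named genes, 537 kept direction and side of the threshold, 34 lost the call, 7 gained one and 9 changed sign. Median centring ended 19 calls. The sign changes were of genes not called in the reported fit. CSD3 stood at -0.0283 (Feature Extraction log ratio), -0.0708 (median centring) and -0.162 (series table), and ran from -0.0303 to 0.092 without 1 replicate each. AT3G03790 stood at -0.0194 (outlier backgrounds kept), -0.0704 (median centring) and -0.089 (series table), and ran from -0.00525 to 0.0805 without 1 replicate each. AT3G03880 ran from -0.478 without replicate 2, where it was called (limma adjusted p = 0.00607), to 0.0069 without replicate 3.

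The median of SAUR19 to SAUR24 went from -1.88 to -1.32 with outlier backgrounds kept, -2.40 with the Feature Extraction ratio and -2.53 with the series table. That of SAUR26 to SAUR29 went from -1.64 to -1.04, -2.44 and -2.58 under the same settings, -1.99 with an offset of 10 (added after seeing the data) and -0.85 with no filter on dim probes, which adds SAUR27 and SAUR28. The difference of the run medians turned to 0.05 (0.0481 and 0.0482) in both the Feature Extraction ratio and the series table, and was -1.04 without the filter. Without 1 replicate each, these values ran from -2.10 to -1.66, from -1.75 to -1.45 and from -0.35 to -0.21. Without replicate 2 SAUR28 also passed the filter, so the chromosome 3 median there (-1.63) and the difference (-0.25) include it. The cause of the shifts between settings was not tested beyond the settings' own construction.

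Over all loci, 3949 were lower and 3687 higher. Counts were 1918 and 1141 with outlier backgrounds kept, 674 and 591 with median centring, and 6369 and 2480 with the series table, where the median of all tested loci was -0.15 in log2. They ran from 2482 to 4337 and from 2316 to 3904 without 1 replicate each, lowest without replicate 1. The share of lower among all calls was 51.7%, and 62.7% and 71.97% with outlier backgrounds kept and the series table. The reported test is itself paired, because each ratio sets the paired samples of an array against each other, which leaves no further block to add. Signal over background limits SAUR27 and SAUR28.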
